A study of Homo sapiens with 12 samples.

Results

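IPMK depletion alone and mitomycin C alone were compared directly, by setting the 3 arrays labelled siIPMK without DNA damage against the 3 arrays labelled control siRNA with mitomycin C. These are 6 of the 12 arrays in the series, and they were chosen by their labels, without use of any measured value. All cells were Cal51, a human breast carcinoma line, and all had received an siRNA 72 hours before harvest. The siIPMK cells carried an siRNA against IPMK and saw no drug. The mitomycin C (MMC) cells carried the control siRNA and spent the last 24 hours in MMC, so the 2 perturbations differ in length as well as in kind. A further group of 3 arrays, with the control siRNA and no drug, gives the untreated level. The study's remaining 3 arrays combined siIPMK with MMC and entered only the normalization, the probe filter and the shared estimate of spread. Each group is 1 cell line and 1 siRNA label, the dose of MMC was not given in the sources used here, and experiments numbered 1 to 3 are the only sign of separate cultures. The p-values therefore measure the spread between these arrays, which may be technical.

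IPMK is an inositol phosphate kinase that makes higher inositol phosphates and a phosphoinositide, and it acts in both nucleus and cytoplasm. MMC crosslinks the strands of DNA, which blocks replication and activates the damage checkpoint kinases. A main transcriptional output of that checkpoint is p53, which induces genes for cell cycle arrest, DNA repair, cell death and its own negative feedback. Through p21, p53 also brings about repression of E2F and cell cycle genes, so its induced and repressed targets can be read separately.

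The arrays held RNA of the digitonin-soluble cytoplasm. Cytoplasmic level alone does not separate transcription, decay and nuclear export. Because each array is a bulk sample, fewer cells of a kind and less RNA per cell cannot be told apart either. Probes detected (detection p under 0.01) numbered 13067 to 13458 on the siIPMK arrays and 12468 to 12687 on the MMC arrays, with no overlap. They numbered 12122 to 12542 on the untreated control arrays. Correlations across genes between arrays of a group ran from 0.979 to 0.994 for siIPMK, 0.987 to 0.993 for MMC and 0.989 to 0.993 for the untreated control. The siIPMK array of experiment 1 stood apart on the first principal component, which held 67.5% of the variance. It lay at 6.6, against 35.3 and 32.2 for the other siIPMK arrays. The MMC arrays lay from -27.6 to -22.7 and the untreated control arrays from -30.4 to -26.8. Among the kept probes none carried the name IPMK, so its own level was not analysed here. The epithelial markers KRT8, KRT18, KRT19, EPCAM and CD24 were detected on 12 of 12 arrays. Of markers of other cells, COL1A1, VWF and MS4A1 were each detected on 1 array, but COL1A2 and PDGFRB were detected on 12 and PECAM1 and CD68 on 11, with no call in the direct comparison.

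The 2 perturbations differed at 3719 of 9409 genes, with 1866 higher in siIPMK and 1853 lower in siIPMK than with MMC. These are 19.8% and 19.7% of the genes tested, at a Benjamini-Hochberg adjusted p under 0.05 in limma. At least 2-fold differences were found for 386 genes that were higher and 302 that were lower, or 4.1% and 3.21%. Calls in either direction made up 39.5% of genes, and for 51.6% the siIPMK arrays lay all above or all below the MMC arrays. The median absolute log2 difference was 0.31. The balance of the directions depended on scaling. Of the genes called, 50.2% were higher with quantile normalization, 75% with median scaling over all probes and 44.4% with median scaling over the kept probes. Median scaling over all probes moved the median of all genes by 0.17, and over the kept probes by -0.04. The former scaling called 2619 genes higher and 872 lower, and the latter 1687 and 2115. Within experiments 1, 2 and 3, the median absolute difference was 0.26, 0.38 and 0.38. Without the siIPMK array of experiment 1 the counts were 2095 higher and 2091 lower. Without that of experiment 2 they were 1224 and 1212, and without that of experiment 3, 1226 and 1267.

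Set against the untreated control, siIPMK changed many genes and MMC few. With siIPMK 1923 genes rose and 1868 fell (20.4% and 19.9%, 40.3% together), and 4.57% rose and 2.94% fell at least 2-fold. With MMC 184 rose and 10 fell (1.96% and 0.106%, 2.06% together), and 0.797% rose and 0.0106% fell at least 2-fold. The arrays were separated from the untreated ones for 52.2% of genes with siIPMK and 21.4% with MMC. With the experiment number as a block, which pairs the MMC and control arrays, MMC raised 244 genes and lowered 37. The MMC counts were unstable: leaving out single arrays gave 115 to 151 rises and 0 to 5 falls, array weights gave 406 and 128, and siRNA and experiment as a random block gave 474 and 224. The lowest counts came without untreated control array 2 (115 and 0) and without MMC array 2 (116 and 2). The 2 comparisons share the 3 untreated control arrays, so values from them are given side by side and no overlap between them is counted. The control arrays cancel from the direct comparison.

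Both perturbations raised a set of p53 targets and other genes. They raised GDF15, CDKN1A and DRAM1 by similar amounts. The direct comparison did not call any of these 3, which were chosen by that rule, so their likeness is a description. CDKN1A, the p21 inhibitor of cyclin-dependent kinases, had log2 signals of 13.55, 14.37 and 14.22 in siIPMK, 14.13, 14.18 and 13.97 with MMC and 12.11, 12.16 and 12.09 in the untreated control. Every array of either perturbation lay above every untreated one, and the perturbed groups overlapped each other. Its log2 change was 1.92 ± 0.15 with siIPMK (adjusted p = 3.86e-06) and 1.97 ± 0.15 with MMC (adjusted p = 4.23e-06). Here and below, ± is the SE of the limma fit over 3 arrays per group, and adjusted p is limma's after Benjamini-Hochberg adjustment. The direct difference was -0.05 ± 0.15 (adjusted p = 0.834).

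GDF15, a secreted stress cytokine, had signals of 10.32, 11.51 and 11.26 in siIPMK, 11.26, 10.87 and 10.41 with MMC and 8.5, 8.2 and 7.94 in the untreated control. The experiment 1 siIPMK array was the lowest of the perturbed arrays, yet above all control arrays. GDF15 rose by 2.82 ± 0.27 with siIPMK and 2.63 ± 0.27 with MMC. DRAM1, a lysosomal membrane protein of p53-linked autophagy, rose by 1.86 ± 0.16 with siIPMK and 1.7 ± 0.16 with MMC. MYBPHL, related to cardiac myosin-binding proteins, went undetected in the untreated control. Its level was at least 2.39-fold higher in siIPMK and at least 2.95-fold higher with MMC. FOSL1, an AP-1 subunit also undetected in the control, was detected on 2 of 3 siIPMK arrays and on 3 of 3 MMC arrays. It was at least 1.12-fold and at least 1.06-fold higher than in the control. GADD45A, a stress sensor that restrains the cell cycle, was picked after its values were seen, and rose by 1.4 ± 0.14 with siIPMK and 1.19 ± 0.14 with MMC.

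Shared falls were few. MIX23, a mitochondrial protein, fell by 1.2 ± 0.18 on the log2 scale with siIPMK and 0.92 ± 0.18 with MMC. ASNS, asparagine synthetase, fell by 0.86 ± 0.14 and 0.67 ± 0.14. NDUFAF4, an assembly factor of respiratory complex I, fell by 0.46 ± 0.11 and 0.47 ± 0.11. MCM6, a subunit of the replicative helicase, fell by 0.4 ± 0.1 and 0.41 ± 0.1. These 4 were not called in the direct comparison. With MMC their limma adjusted p values were 0.0115 for MIX23, 0.0188 for ASNS, 0.0317 for NDUFAF4 and 0.0388 for MCM6. Each of these 4 calls was lost on leaving out untreated control array 2 or 3 or MMC array 2, among others.

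Some other p53 targets parted, and some did not. TOB1, RPS27L, SESN2, TRIM22, TIGAR, SPATA18 and ASCC3 were called as rises under both perturbations and not called in the direct comparison. TOB1, for example, rose by 1.02 ± 0.13 with siIPMK and 1.21 ± 0.13 with MMC. These genes were named after their values were seen. Of the 63 genes on the 5 p53 lists, 50 were measured. Against MMC, 6 of the 50 were higher in siIPMK, 22 lower and 22 not called, where 19.8% of all genes were higher and 19.7% lower. The median log2 difference was -0.26, against 0 over all genes. Against the untreated control, 28 rose and 3 fell with siIPMK (median 0.56), where 20.4% of all genes rose and 19.9% fell. With MMC 27 rose and 0 fell (median 0.77, and 31 rose with the experiment as a block), where 1.96% of all genes rose. Without the siIPMK array of experiment 1, the direct counts were 7 higher and 20 lower (median -0.16). Under median scaling over all probes they were 7 and 16 (median -0.11), where 2619 of 9409 genes were higher and 872 lower. The lists by role share some genes, so their counts do not add up to those of the 50. Feedback genes and sestrins had 0 of 10 higher in siIPMK and 6 lower (median -0.68). Repair and nucleotide supply had 1 of 8 higher and 5 lower (median -0.62). Arrest and stress genes had 0 of 12 higher and 5 lower (median -0.12). Death genes had 3 of 12 higher and 6 lower (median -0.11), and the median was 0.12 without the siIPMK array of experiment 1. Autophagy and metabolism genes had 2 of 11 higher and 2 lower (median 0.21). No difference between the lists was tested. Relative to the untreated control, the death list's median on the arrays of experiments 1, 2 and 3 was 0.4, 0.99 and 0.84 in siIPMK and 0.76, 0.71 and 0.57 with MMC. That of the autophagy list was 0.32, 0.72 and 0.65 in siIPMK and 0.46, 0.53 and 0.21 with MMC, so that in both lists 2 of the 3 siIPMK arrays lay above all MMC arrays.

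**Figure D1:**
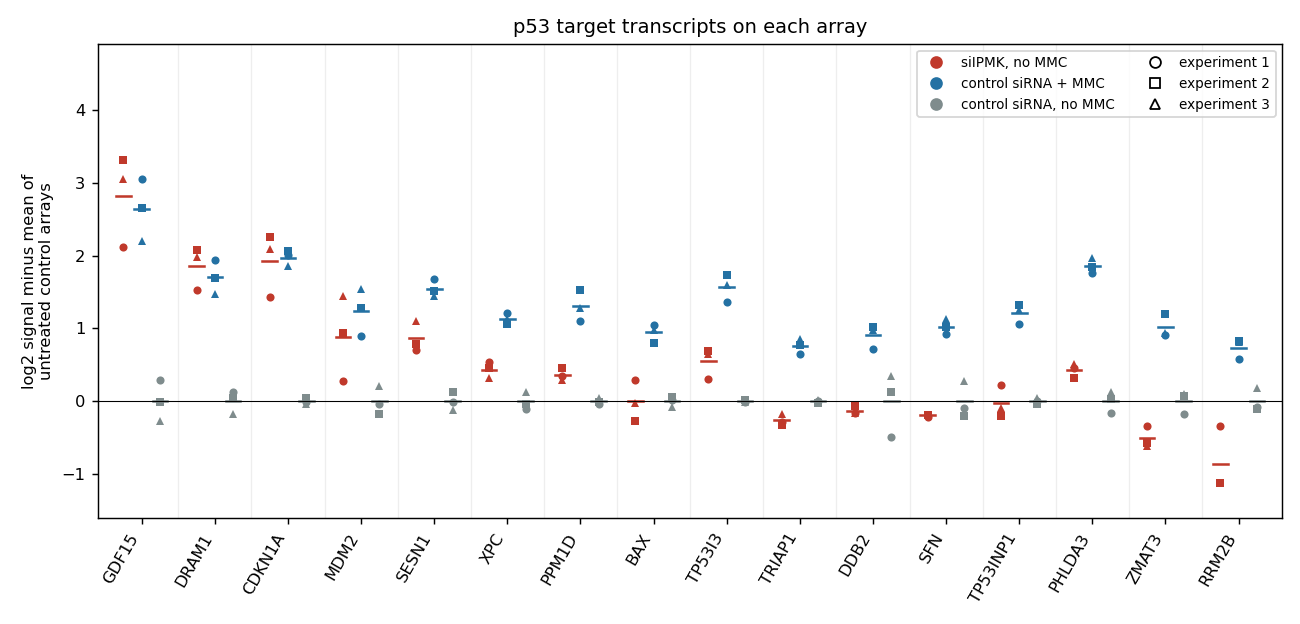
Log2 signal of 16 p53 targets on each array, minus the gene's mean on the untreated control arrays, for siIPMK (red), control siRNA with MMC (blue) and untreated control siRNA (grey). Marker shapes give the experiment and bars the mean of 3 arrays. GDF15, DRAM1 and CDKN1A lie at similar heights under both perturbations, while genes to the right of MDM2 lie higher with MMC. The 6 genes of the p53 lists that were called higher in siIPMK than with MMC are not drawn. Also left out are GADD45A, TOB1, RPS27L, SESN2, TRIM22, TIGAR, SPATA18 and ASCC3, which rose under both perturbations and were not called between them.

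Among feedback genes, ZMAT3, an RNA-binding protein, had signals of 10.13, 9.88 and 9.84 in siIPMK, 11.37, 11.65 and 11.4 with MMC and 10.28, 10.53 and 10.56 in the untreated control. The 3 groups did not overlap, with siIPMK lowest and MMC highest. The direct difference was -1.52 ± 0.13 (adjusted p = 7.29e-06). PPM1D, the phosphatase that switches off the checkpoint, had 9.44, 9.55 and 9.37 in siIPMK, 10.19, 10.62 and 10.37 with MMC and 9.05, 9.08 and 9.14 in the control. It was intermediate in siIPMK, with a direct difference of -0.94 ± 0.13. SESN1, a stress-induced inhibitor of mTORC1 signalling, was also intermediate and lower in siIPMK than with MMC by 0.68 ± 0.12. TP53INP1, a p53 cofactor, rose by 1.22 ± 0.18 with MMC and had a change of -0.02 ± 0.18 with siIPMK, which was not called. MDM2, the ubiquitin ligase of p53, was detected on 2 of 3 siIPMK arrays, 2 of 3 MMC arrays and 0 of 3 untreated control arrays. It was called in both comparisons against the control, and its direct difference of -0.35 ± 0.27 did not pass (adjusted p = 0.312).

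Among arrest genes, PHLDA3, an inhibitor of AKT, had signals of 8.69, 8.56 and 8.74 in siIPMK, 9.99, 10.07 and 10.19 with MMC and 8.06, 8.27 and 8.36 in the untreated control. All MMC arrays lay above all siIPMK arrays, by 1.42 ± 0.14 on average (adjusted p = 1.94e-05). PHLDA3 rose from the control under both, by 0.43 ± 0.14 with siIPMK (adjusted p = 0.0248) and 1.86 ± 0.14 with MMC. SFN, the 14-3-3 sigma protein that holds mitotic kinases in the cytoplasm, had 8.06, 8.09 and 8.09 in siIPMK, 9.2, 9.3 and 9.4 with MMC and 8.19, 8.08 and 8.56 in the control. The siIPMK arrays overlapped the control arrays, and all MMC arrays lay above both. PTP4A1, a phosphatase, differed by -0.87 ± 0.27, although its change from the control was not called under either perturbation.

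Among death genes, BAX, which permeabilises the mitochondrial outer membrane, had 12.11, 11.55 and 11.79 in siIPMK, 12.87, 12.62 and 12.79 with MMC and 11.84, 11.87 and 11.74 in the untreated control. It rose by 0.94 ± 0.14 with MMC, while its change with siIPMK was 0 ± 0.14 (adjusted p = 0.992). TP53I3, a quinone oxidoreductase, differed by -1.02 ± 0.13 between siIPMK and MMC, and TRIAP1, a p53-regulated inhibitor of apoptosis, by -1.02 ± 0.13. TP53I3 rose from the control under both, by 0.55 ± 0.13 with siIPMK (adjusted p = 0.00426) and 1.57 ± 0.13 with MMC. TRIAP1 rose by 0.76 ± 0.13 with MMC, and its change of -0.26 ± 0.13 with siIPMK was not called. TNFRSF10A, a TRAIL death receptor, went the other way in the direct comparison. Its signals were 6.68, 7.45 and 7.56 in siIPMK, and it was detected on none of the 3 MMC arrays or 3 control arrays. It was at least 1.73-fold higher in siIPMK than with MMC (adjusted p = 0.00522). TNFRSF10B, the other TRAIL death receptor, was higher by 0.7 ± 0.26 in siIPMK (adjusted p = 0.0441), with overlapping arrays, and PERP, a desmosomal p53 target detected on 2 of 3 MMC arrays, was also higher. These 3 are all the higher genes of the list, and the last 2 were named after their values were seen.

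Among p53-induced repair genes, RRM2B, a ribonucleotide reductase subunit, had 7.92, 7.14 and 7.14 in siIPMK, 8.84, 9.09 and 9.07 with MMC and 8.19, 8.16 and 8.44 in the untreated control. It differed by -1.6 ± 0.25 (adjusted p = 3.60e-04), having fallen with siIPMK by 0.86 ± 0.25 from the control, while its change with MMC of 0.74 ± 0.25 did not pass (adjusted p = 0.212). XPC, a damage sensor of nucleotide excision repair, rose by 0.44 ± 0.13 with siIPMK and 1.14 ± 0.13 with MMC, and differed directly by -0.7 ± 0.13. POLH, the polymerase that bypasses ultraviolet damage, differed by -0.69 ± 0.17, although its change from the control was not called under either perturbation. DDB2, the damage-binding protein of the same pathway, was detected on 3 of 3 MMC arrays and on no siIPMK or untreated control array. It was at least 1.8-fold higher with MMC than in siIPMK (adjusted p = 0.00248).

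DDB2 is shown because it was the only p53-list gene among 38 with a RefSeq promoter whose window (250 bases before to 50 after the start, GRCh38.p14) held a full p53 response element, searched by name on both strands. Such an element was found in 2 of 7824 promoters of tested genes, or 0.0256%. Its 21 bases, just after the start, are in capitals within the 60 bases of chr11:47214940-47214999 on the plus strand.
DDB2: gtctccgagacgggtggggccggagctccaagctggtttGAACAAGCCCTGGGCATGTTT
A match is a description and not a shown site, and elements outside these windows were not searched.

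The rule for genes called in opposite directions against the control found AK1, ZMAT3, NUP62CL and RABL2B, each of which fell with siIPMK and rose with MMC. The MMC calls of AK1, NUP62CL and RABL2B (limma adjusted p = 0.0292, 0.0281 and 0.0468) were each lost on leaving out untreated control array 2 or 3 or MMC array 2 or 3, and that of ZMAT3 held in all 17 settings. AK1, an adenylate kinase, had 7.97, 7.64 and 7.56 in siIPMK, 8.88, 9.12 and 9.07 with MMC and 8.54, 8.22 and 8.41 in the untreated control. Its 3 groups did not overlap. It differed by -1.3 ± 0.14 (adjusted p = 3.59e-05), from a fall of 0.67 ± 0.14 with siIPMK and a rise of 0.63 ± 0.14 with MMC. NUP62CL differed by -1.09 ± 0.14 and RABL2B, a ciliary GTPase, by -0.92 ± 0.11. INKA2, an inhibitor of the kinase PAK4, was called with MMC against the control and not with siIPMK. Its signals were 7.02, 6.77 and 6.69 in siIPMK, 9, 9.31 and 9.31 with MMC and 6.45, 6.87 and 6.47 in the untreated control, where it was detected on 1 of 3 arrays. It differed directly by -2.38 ± 0.15 (adjusted p = 1.12e-06).

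Of the 20 genes with the largest direct differences, 10 in each direction, all but INKA2 lacked a call for MMC against the untreated control. RPPH1, the RNA of ribonuclease P, had 10.9, 10.66 and 10.65 in siIPMK, 8, 7.72 and 7.64 with MMC and 7.74, 7.45 and 7.69 in the untreated control. The siIPMK arrays stood clear of both other groups, by 2.95 ± 0.14 from MMC (adjusted p = 2.09e-08). CD44, the hyaluronan receptor, had 11.22, 11.81 and 11.44 in siIPMK, 9.9, 9.2 and 8.82 with MMC and 9.44, 8.73 and 8.62 in the control. ABCA1, which exports cholesterol, had 8.74, 9.76 and 9.63 in siIPMK, 7.03, 7.42 and 7.07 with MMC and 6.99, 6.9 and 6.81 in the control. These 2 were higher in siIPMK than with MMC by 2.18 ± 0.26 and 2.2 ± 0.25.

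DHRS2, a mitochondrial reductase, was not detected on any MMC or untreated control array, and had 9.1, 7.59 and 7.53 in siIPMK, where the experiment 1 array was the highest. It was at least 3.11-fold higher in siIPMK than with MMC. The bounds for other genes detected on all siIPMK arrays and on none of the MMC or control arrays were at least 3.16-fold for DGKB, a diacylglycerol kinase, 2.49-fold for OTOF, a vesicle calcium sensor, 2.43-fold for TDO2, which opens the tryptophan ring, 2.17-fold for C1S, a complement protease, and 1.75-fold for HSPB8, a small heat shock protein. SGIP1, an endocytic adaptor, was detected on 2 of 3 siIPMK arrays and was at least 1.38-fold higher. Each of these 7 genes passed, with adjusted p values from 1.46e-05 for DGKB to 7.56e-04 for HSPB8.

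Among genes lower in siIPMK, RAB22A, an endosomal GTPase, had 8.05, 7.11 and 7.44 in siIPMK, 9.81, 10.02 and 10.02 with MMC and 9.97, 9.91 and 9.88 in the untreated control. It differed by -2.42 ± 0.22 (adjusted p = 1.01e-05), and no siIPMK array overlapped the other groups. SLC25A15, the ornithine carrier of mitochondria, differed by -2.25 ± 0.31. TMEM30A, a flippase subunit, LRTOMT, and TPD52, a trafficking protein, were each detected on 1 of 3 siIPMK arrays and on all MMC and control arrays, so no size is given (adjusted p = 1.88e-05, 1.46e-05 and 1.88e-04). HES5, a Notch target, was likewise detected on 1 of 3 siIPMK arrays, and its experiment 1 array was the highest of every group. Its call (adjusted p = 0.0259) was lost in 3 of 16 alternative fits.

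**Figure D2:**
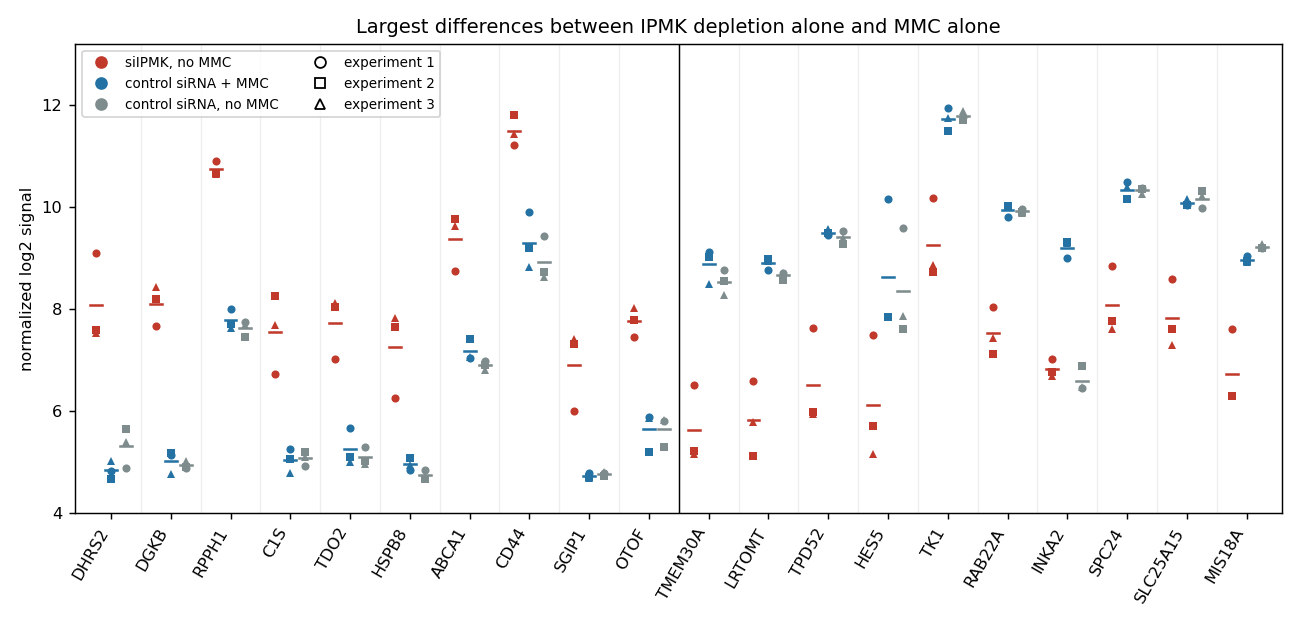
Log2 signal of the 20 genes with the largest called differences between siIPMK and MMC without overlap, 10 higher in siIPMK (left of the line) and 10 lower (right). Points are arrays, shapes experiments and bars means of 3 arrays. MMC and untreated control arrays lie close together except for INKA2, and in the genes lower in siIPMK the experiment 1 siIPMK array is the highest of its group.

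Of the lists with at least 8 measured genes, mitosis had the largest share lower in siIPMK. Of 63 measured, 48 were lower and 0 higher (median -0.65), where 19.7% of all genes were lower. Against the untreated control, 0 rose and 49 fell with siIPMK (median -0.72), and 0 rose and 0 fell with MMC (median -0.03; 0 and 0 with the experiment as a block). Without the siIPMK array of experiment 1, 54 were lower. Under median scaling over all probes 26 were lower, where 872 of 9409 genes were lower, and the median was -0.5. Within experiments 1, 2 and 3 the median of the list was -0.28, -0.88 and -0.89. BIRC5, survivin of the chromosomal passenger complex, had 10.06, 9.19 and 8.74 in siIPMK, 11.32, 11.26 and 11.39 with MMC and 11.45, 11.26 and 11.32 in the untreated control, a direct difference of -1.99 ± 0.28 (adjusted p = 2.04e-04). SPC24, a kinetochore subunit, had 8.85, 7.76 and 7.61 in siIPMK, 10.48, 10.16 and 10.39 with MMC and 10.38, 10.36 and 10.25 in the control. In both genes the experiment 1 array was the highest of siIPMK and still below all arrays of the other groups. MIS18A, which helps load the centromeric histone, differed by -2.24 ± 0.36 and CENPM, a kinetochore protein, by -1.19 ± 0.18. PLK1, the mitotic kinase, differed by -0.98 ± 0.22 and CCNB1, cyclin B1, by -0.85 ± 0.27 (adjusted p = 0.0216). TOP2A, topoisomerase II, was lower in siIPMK than with MMC by 0.54 ± 0.16, although its change from the control was not called under either perturbation.

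Promoters of the mitosis list are shown because so many of its genes were lower together. The core of the cell cycle homology region, TTTGAA on either strand, was found in 39 of 53 of their RefSeq promoters, or 73.6%, and in 1085 of 7824 promoters of tested genes, or 13.9%. The capitals mark it, in 60 bases of GRCh38.p14, at chr5:138331802-138331861 (- strand) for CDC25C, the phosphatase that activates mitotic kinase, at chr16:23678833-23678892 (+ strand) for PLK1 and, as its reverse complement, at chr17:40418015-40418074 (- strand) for TOP2A.
CDC25C: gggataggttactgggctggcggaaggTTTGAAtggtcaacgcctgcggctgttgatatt
PLK1: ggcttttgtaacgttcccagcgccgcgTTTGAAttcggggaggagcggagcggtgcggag
TOP2A: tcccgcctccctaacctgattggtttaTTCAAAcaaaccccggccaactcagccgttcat
The direct differences of these 3 genes were -0.86 ± 0.22, -0.98 ± 0.22 and -0.54 ± 0.16.

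Genes of DNA replication and nucleotide supply were lower in siIPMK as well. Of 49 replication genes, 32 were lower and 1 higher (median -0.59). Against the untreated control, 0 rose and 35 fell with siIPMK, and 0 rose and 1 fell with MMC. Without the siIPMK array of experiment 1, 33 were lower and 1 higher, and under median scaling over all probes 21 and 2. Over all 9409 genes that scaling called 872 lower and 2619 higher. POLE3, a subunit of polymerase epsilon, had 11.89, 11.06 and 11.27 in siIPMK, 12.91, 13.22 and 13.04 with MMC and 13.32, 13.04 and 13.08 in the untreated control. CDT1, which licenses origins, had 9.98, 9.45 and 9.6 in siIPMK, 11.01, 11.25 and 11.21 with MMC and 10.93, 10.94 and 11.09 in the control. Neither gene's siIPMK arrays overlapped the other groups, and the direct differences were -1.65 ± 0.2 and -1.48 ± 0.14 (adjusted p = 1.84e-05). GINS4, a helicase subunit, differed by -1.63 ± 0.25 and POLE2, another polymerase epsilon subunit, by -1.27 ± 0.26. Of 11 genes of deoxynucleotide synthesis, 6 were lower and 0 higher (median -0.35), or 9 and 0 without the siIPMK array of experiment 1. TK1, the thymidine kinase of S phase, had 10.18, 8.72 and 8.86 in siIPMK, 11.94, 11.5 and 11.75 with MMC and 11.78, 11.7 and 11.89 in the control. It was lower in siIPMK by 2.48 ± 0.39, and the experiment 1 array was the highest of the 3. SHMT1, which supplies folate carbon, differed by -1.54 ± 0.2 and RRM1, the large subunit of ribonucleotide reductase, by -0.81 ± 0.15.

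CDT1 is shown for the E2F motif, TTTCCCGC on either strand, which was found in 12 of 43 replication promoters, or 27.9%, and in 260 of 7824 promoters of tested genes, or 3.32%. In CDT1 it reads as the reverse complement (capitals), at chr16:88803728-88803787 (+ strand) of GRCh38.p14.
CDT1: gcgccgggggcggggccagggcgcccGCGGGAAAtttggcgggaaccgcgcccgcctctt

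Repair and checkpoint genes outside the p53 lists were in part lower in siIPMK than with MMC, where 19.7% of all genes were lower. In homologous recombination 16 of 29 were lower and 1 higher (median -0.47). Among crosslink repair and Fanconi anaemia genes, whose pathway removes lesions of the kind MMC makes, 8 of 23 were lower and 0 higher (median -0.29). In the checkpoint list 11 of 21 were lower and 0 higher (median -0.36), and in mismatch and base excision repair 11 of 23 and 0 (median -0.34). With MMC, 0 genes of these 4 lists passed against the untreated control, in limma without a block, and 1 Fanconi gene and 2 mismatch and base excision genes passed with the experiment as a block. Under median scaling over all probes, 10, 3, 5 and 5 genes of the 4 lists were lower in siIPMK, and 2, 2, 3 and 0 were higher. Fewer genes were lower at all under that scaling, with 872 of 9409 lower and 2619 higher. SEM1, which serves in the proteasome lid and binds BRCA2, had 12.8, 11.46 and 11.55 in siIPMK, 14.08, 14.05 and 14.21 with MMC and 14.2, 14.15 and 14.22 in the untreated control. FANCI, which forms the clamp loaded at crosslinks, had 8.47, 8.01 and 8.01 in siIPMK, 9.21, 9.39 and 9.48 with MMC and 9.12, 9.3 and 9.36 in the control. Their direct differences were -2.18 ± 0.31 and -1.2 ± 0.21, with no overlap. EXO1, the resecting exonuclease, differed by -1.14 ± 0.15, FANCE by -1.01 ± 0.14 and BRCA1 by -0.74 ± 0.16 (adjusted p = 0.00324). CHEK2, a checkpoint kinase, differed by -1.06 ± 0.21 and CHEK1 by -0.47 ± 0.14 (adjusted p = 0.0144). TDG, a DNA glycosylase, differed by -1.03 ± 0.13. In nucleotide excision repair 5 of 20 were lower and 2 higher.

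**Figure D3:**
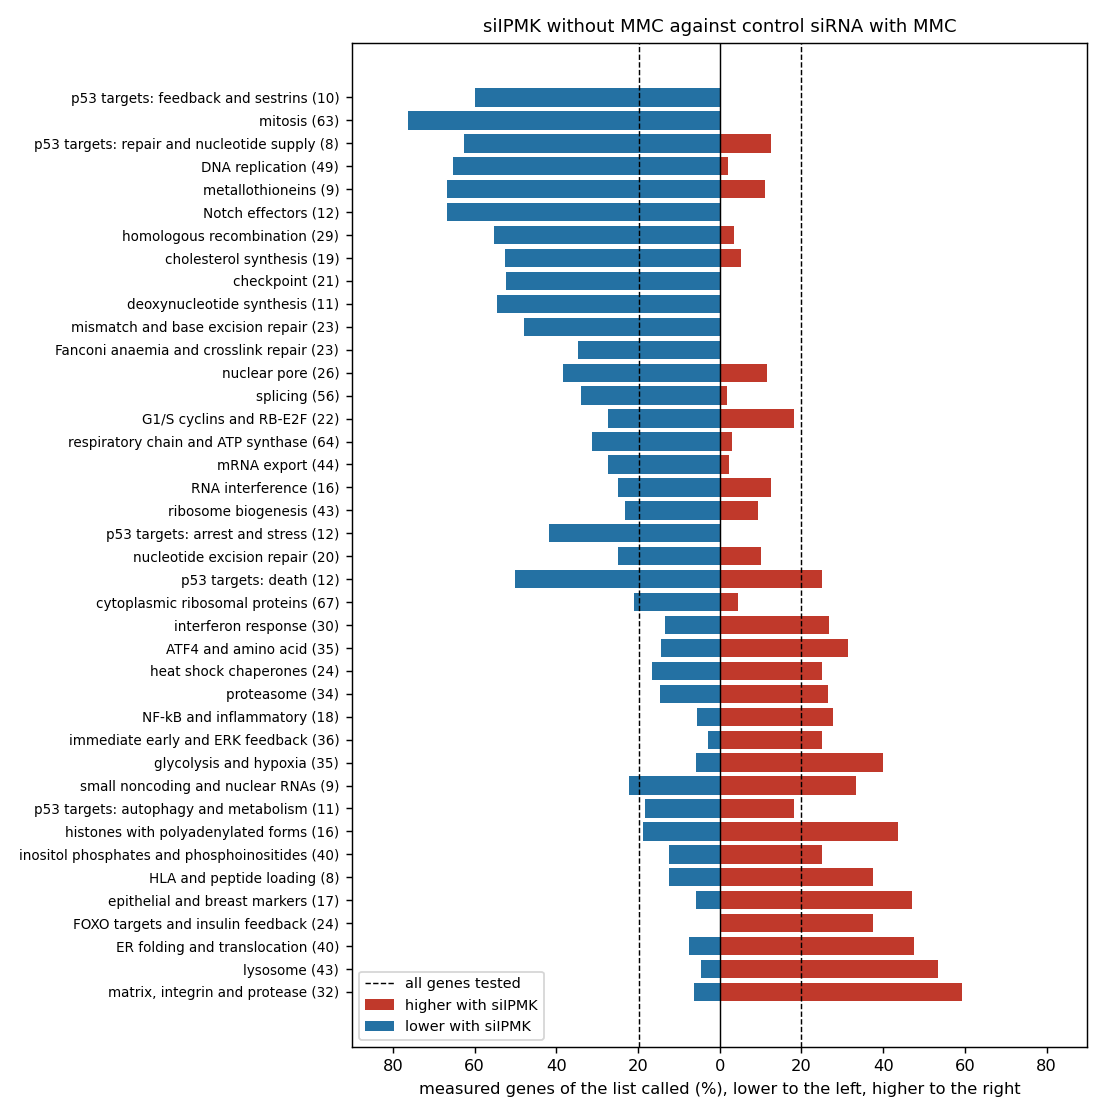
Share of the measured genes of each list called in the direct comparison (percent; number measured in parentheses), lower in siIPMK than with MMC to the left and higher to the right, with lists ordered by median difference. Dashed lines mark the shares over all genes, 19.7% lower and 19.8% higher. Mitosis reaches farthest left, and matrix and lysosome genes farthest right.

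Secretory and lysosomal genes lay on the other side. Of 32 genes of matrix, integrins and proteases, 19 were higher in siIPMK than with MMC and 2 lower (median 0.7), where 19.8% of all genes were higher. Lysosomal genes had 23 of 43 higher and 2 lower (median 0.53), and genes of folding and translocation in the endoplasmic reticulum 19 of 40 and 3 (median 0.51). Against the untreated control, 17, 21 and 13 genes of these 3 lists rose with siIPMK, and 1, 0 and 0 rose with MMC. Without the siIPMK array of experiment 1, 18, 28 and 22 were higher. In experiment 1 alone the medians were 0.31, 0.07 and 0.02, against 0.93, 0.59 and 0.62 in experiment 2 and 0.87, 0.84 and 0.77 in experiment 3. TIMP2, an inhibitor of metalloproteinases, had 11.37, 12.1 and 11.88 in siIPMK, 10.64, 10.23 and 10 with MMC and 10.52, 10.28 and 10.16 in the untreated control. LAMP2, a lysosomal membrane protein, had 10.05, 11.05 and 10.79 in siIPMK, 9.18, 8.89 and 8.44 with MMC and 9.57, 9.32 and 8.68 in the control. For both, the lowest siIPMK array was that of experiment 1 and still lay above all arrays of the other groups. They were higher in siIPMK than with MMC by 1.49 ± 0.2 and 1.79 ± 0.32 (adjusted p = 8.61e-04). CTSD, a lysosomal protease, was higher by 1.7 ± 0.3, NEU1, the lysosomal sialidase, by 1.52 ± 0.28, and DNAJB9, a cochaperone of the endoplasmic reticulum, by 1.6 ± 0.3. WIPI1, an autophagy protein, was higher by 1.18 ± 0.16.

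CTSD and NEU1 are shown for the E-box CACGTG, the core of the motif bound by the lysosomal regulator TFEB and by many other factors. It was found in 11 of 33 lysosome promoters, or 33.3%, and in 1015 of 7824 promoters of tested genes, or 13%. The capitals mark it, at chr11:1763942-1764001 (- strand) for CTSD and chr6:31862915-31862974 (- strand) for NEU1 (GRCh38.p14).
CTSD: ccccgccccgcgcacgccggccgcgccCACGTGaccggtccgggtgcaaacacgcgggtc
NEU1: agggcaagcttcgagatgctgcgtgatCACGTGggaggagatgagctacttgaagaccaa

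**Figure D4:**
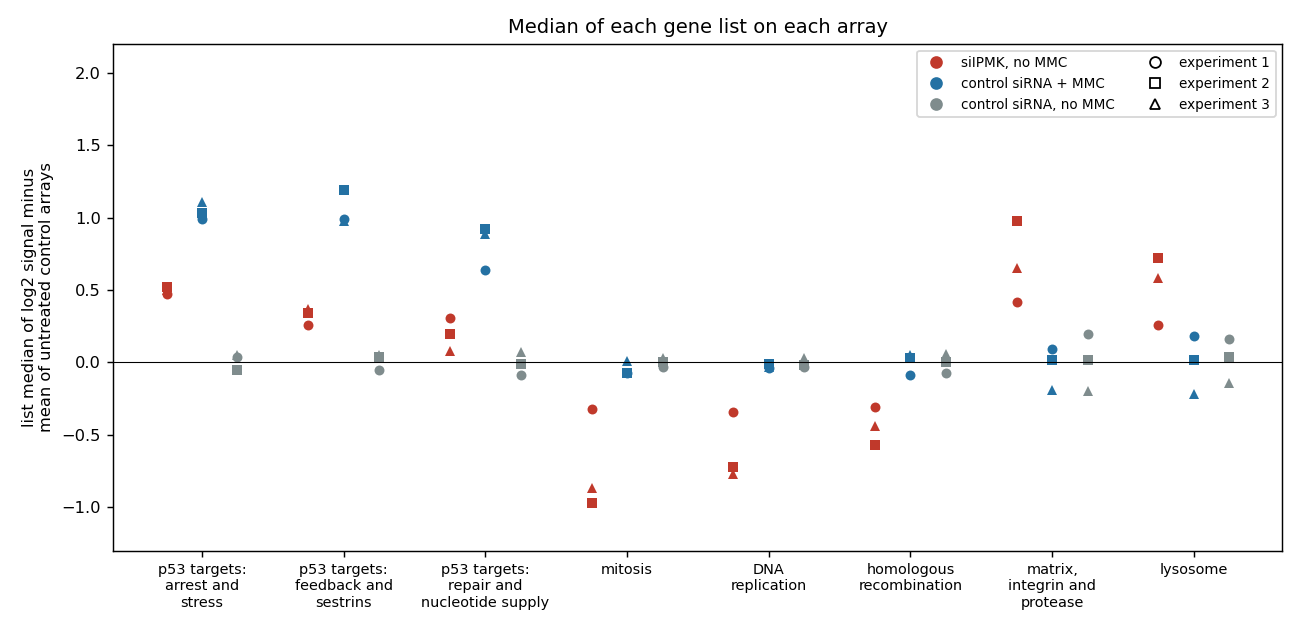
Median over each gene list of the log2 signal minus the gene's mean on the untreated control arrays, for each array of siIPMK (red), control siRNA with MMC (blue) and untreated control siRNA (grey), with shapes for the experiment. The 3 p53 lists drawn (arrest, feedback and repair) lie highest with MMC, and in the mitosis, replication, recombination, matrix and lysosome lists siIPMK lies away from the other groups, least in experiment 1. Of the 12 arrest genes, 7 were not called between siIPMK and MMC. The p53 death and autophagy lists, where most siIPMK arrays lay above all MMC arrays, are not drawn.

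Smaller lists are set against all genes, of which 19.8% were higher in siIPMK than with MMC and 19.7% lower. Median scaling over all probes called 2619 of 9409 genes higher and 872 lower. FOXO targets and insulin feedback genes had 9 of 24 higher in siIPMK and 0 lower (median 0.45), and 14 and 0 under median scaling over all probes. Among them CCNG2, an inhibitory cyclin, differed by 1.14 ± 0.13 and TRIB1, a pseudokinase, by 1.13 ± 0.18, while TRIB2 was detected on none of the MMC or control arrays and was at least 2.34-fold higher in siIPMK than with MMC. Cholesterol synthesis had 10 of 19 lower and 1 higher (median -0.4), and 4 and 2 under median scaling over all probes. From the untreated control, 11 of the 19 fell with siIPMK (median -0.59) and 2 with MMC (median -0.25), and 0 rose with either. Over all genes, 19.9% fell with siIPMK and 0.106% with MMC. IDI1, the isopentenyl diphosphate isomerase, had 7.65, 6.84 and 6.54 in siIPMK, 8.54, 8.87 and 8.99 with MMC and 8.72, 9.33 and 9 in the untreated control, with no overlap of siIPMK and a difference of -1.79 ± 0.3. HMGCS1 of the same pathway differed by -0.18 ± 0.12 and did not pass (adjusted p = 0.243). Notch effectors had 8 of 12 lower and 0 higher (median -0.52). Under median scaling over all probes 5 were lower and 1 higher. HEYL, a Notch-responsive repressor, had 7.77, 6.58 and 6.77 in siIPMK, 8.96, 9.23 and 9.47 with MMC and 9.21, 9.3 and 9.61 in the control, a difference of -2.18 ± 0.32. HES2, in contrast, was detected on the 3 MMC arrays and nowhere among the siIPMK or untreated control arrays. It was at least 1.54-fold higher with MMC than in siIPMK. Metallothioneins, which bind zinc and copper, had 6 of 9 lower and 1 higher (median -0.59). Their near-identical copies may share probe signal, so single members are uncertain.

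Glycolysis and hypoxia genes had 14 of 35 higher and 2 lower (median 0.17), where 19.8% of all genes were higher and 19.7% lower. The same shares apply to the other lists of this paragraph. SLC2A1, the glucose transporter, was higher in siIPMK by 1.8 ± 0.3 and CA12, a carbonic anhydrase, by 1.61 ± 0.28. A mixed list of epithelial, mesenchymal and breast markers had 8 of 17 higher and 1 lower (median 0.39), or 3 lower without the siIPMK array of experiment 1. Of its epithelial genes, KRT19, a keratin, was higher by 1.13 ± 0.16 and EPCAM, an adhesion protein, by 0.58 ± 0.15, while KRT18, another keratin, had -0.22 ± 0.16 and did not pass (adjusted p = 0.279). Of its mesenchymal genes, CDH2, N-cadherin, was higher by 1.51 ± 0.24 and VIM, vimentin, lower by 0.33 ± 0.11. SCGB2A1, a secretoglobin of breast, was higher by 1.93 ± 0.22. KRT18, KRT19, EPCAM and VIM were named after their values were seen. CD24 had 13.07, 13.53 and 13.49 in siIPMK, 12.19, 12.42 and 12.39 with MMC and 12.03, 12.25 and 12.33 in the untreated control, with no overlap of siIPMK. Of 16 histone genes with polyadenylated forms, 7 were higher and 3 lower. H2BC12 was higher by 1.57 ± 0.14 and H2AC6 by 1.71 ± 0.15, and H3-3B, a replication-independent variant, was lower by 1.72 ± 0.3. Inositol phosphate and phosphoinositide genes, the family that includes IPMK's own pathway, had 10 of 40 higher and 5 lower (median 0.26), where 19.8% of all genes were higher. Under median scaling over all probes 16 were higher and 3 lower, where 2619 of 9409 genes were higher and 872 lower. MINPP1, which removes phosphates from higher inositol phosphates, was detected on all siIPMK arrays, no MMC array and 1 of 3 untreated control arrays, and was at least 1.78-fold higher in siIPMK. ITPKA, an inositol trisphosphate kinase, was lower by 1.08 ± 0.13. In mRNA export, 12 of 44 were lower and 1 higher (median -0.15), where 19.7% of all genes were lower. There DDX19A, the helicase of the nuclear pore's cytoplasmic face, differed by -0.91 ± 0.12 and ALYREF, an export adaptor, by -0.54 ± 0.19 (adjusted p = 0.0385).

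For the lists that follow, 19.8% of all genes were higher and 19.7% lower in siIPMK than with MMC, and several list shares lay near these. Median scaling over all probes called 2619 of 9409 genes higher and 872 lower, and that over the kept probes 1687 and 2115. Cytoplasmic ribosomal proteins had 14 of 67 lower and 3 higher (median -0.06), and 31 and 0 under median scaling over the kept probes. The respiratory chain had 20 of 64 lower and 2 higher (median -0.16), and 35 and 1 under that scaling. Splicing genes had 19 of 56 lower and 1 higher, the nuclear pore 10 of 26 and 3, and ribosome biogenesis 10 of 43 and 4. Under median scaling over all probes the lower counts of these 3 lists were 9, 4 and 2, that of mRNA export 5, and that of the respiratory chain 10. G1/S cyclins and E2F regulators had 6 of 22 lower and 4 higher. E2F7, a repressor of E2F targets that p53 induces, had 9.02, 8.49 and 8.79 in siIPMK, 10.06, 10.46 and 10.33 with MMC and 9.37, 9.66 and 9.71 in the untreated control, with siIPMK lowest, MMC highest and no overlap. Its change of 0.7 with MMC against the control was not called (limma adjusted p = 0.0762). CCND1, cyclin D1, was higher in siIPMK by 0.55 ± 0.14. RNA interference genes had 4 of 16 lower and 2 higher. The proteasome had 9 of 34 higher and 5 lower (2 and 6 under median scaling over the kept probes), heat shock chaperones 6 of 24 and 4, interferon response genes 8 of 30 and 4, and amino acid response genes 11 of 35 and 5. Immediate early and ERK feedback genes had 9 of 36 higher and 1 lower (median 0.16), or 7 and 2 without the siIPMK array of experiment 1 (median 0.03). Among them MYC was higher by 1.06 ± 0.15 and DUSP5, a phosphatase of ERK, by 1.23 ± 0.18. NF-kB and inflammatory genes had 5 of 18 higher and 1 lower, that 1 being IL32 at -1.45 ± 0.17. Antigen presentation genes had 3 of 8 higher and 1 lower. HLA-DMB, a peptide exchange factor of class II, was higher by 1.85 ± 0.32, while B2M, the light chain of class I, was lower by 1.41 ± 0.25. Small noncoding and nuclear RNAs had 3 of 9 higher and 2 lower. Fibroblast and endothelial markers had 0 of 4 higher and 1 lower, ACTA2 (smooth muscle actin) at -0.66 ± 0.24, but 1 higher and 0 lower without the siIPMK array of experiment 1, and the 1 measured leukocyte marker was not called.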

How the data were processed

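Illumina bead arrays measured cytoplasmic RNA in 12 samples, 3 in each of 4 groups. Per the file headers, the deposited table gave for each probe an intensity, a detection p-value against negative controls, a bead standard error as a linear signal, and a count of beads. The authors' processed table held log2-scale values with columns sharing 1 distribution; its transform was not given in the sources used here, and lumi is named per the submitters' processing notes. Neither bead errors nor bead counts entered the fit, and precision is limited by the number of arrays.

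Intensities were background corrected by normexp from the detection p-values (offset 16), quantile normalized over all 12 arrays and put on the log2 scale with limma 3.58.1 in R 4.3.3. Of 48802 probes, 13830 had a detection p under 0.01 on at least 3 arrays. Platform annotation, updated through Entrez identifiers, gave 1 symbol to 12086, several to 2 and none to 1742. Each of 9409 genes was read from its brightest probe. Several kept probes existed for 2219 genes, and they gave opposed calls for 17 genes in the direct comparison, 16 with siIPMK and 0 with MMC. A fit of 4 group means with a trended prior (lmFit, eBayes) gave all contrasts, at a Benjamini-Hochberg adjusted p under 0.05. A probe undetected on every array of a group has only a bound there: "at least" folds set the brighter group's mean against, per array, the higher of the lowest detected signal and the probe's own. The fit was tested on simulated data.

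The genes named were the 10 largest calls without overlap in each direction, up to 6 shared and 4 opposed changes per kind, up to 4 per list and a fixed set, besides those said to be chosen after their values were seen. A single shared rise is not reported here. Members and the 42 gene lists were chosen with earlier results of these data known. Same-numbered MMC and untreated control arrays deviated together (correlations 0.49, 0.19 and 0.42, each highest with its own number), so the number pairs them. For siIPMK and MMC arrays the correlations were 0.09, 0.21 and 0.07, and only that of experiment 2 was highest with its own number. Whether the number pairs these groups is therefore unclear, and the main fit was unpaired. With the experiment as a block, 45.5% of genes were called in the direct comparison, against 39.5% without it. Alternatives covered scaling, background, the authors' values, probe filters, probe averaging, the samples fitted, blocks, array weights and each array left out.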

Additional observations from a re-analysis of the deposited data

How the results depend on the processing

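No called value changed sign under the alternatives run. Median scaling over all probes moved the median of all genes by 0.17. Relative to that shift, list medians kept their sign except for the proteasome (-0.05, against 0.08 with quantile normalization) and heat shock chaperones (-0.03, against 0.06). Median scaling over the kept probes gives the same relative medians by construction, because both scalings subtract a constant from each array. For the direct comparison, array weights gave 2848 genes higher and 2781 lower in siIPMK, and median scaling over all probes gave 872 lower; for siIPMK against the untreated control that scaling gave 1065 lower. For MMC against the untreated control, 406 genes were higher with array weights and 474 with siRNA and experiment as a random block, an alternative chosen after seeing the data. Those lower with MMC numbered 6 among genes detected on all 12 arrays, 38 with only the 2 groups in the fit, 37 with the experiment as a replicate block, 128 with array weights, 16 with median scaling over the kept probes (also chosen after seeing the data) and 224 with the random block. The replicate block gave 2176 higher and 2105 lower in the direct comparison and 2251 and 2175 for siIPMK against the control. Leaving out each array gave 1224 to 2095 higher and 1212 to 2091 lower in the direct comparison, 1302 to 2190 and 1234 to 2123 for siIPMK against the control, and 115 to 151 and 0 to 5 for MMC. The lowest MMC counts came without untreated control array 2 (115 higher, 0 lower) and without MMC array 2 (116 higher, 2 lower). Of the 20 genes with the largest direct differences, 19 were called in every alternative run, and HES5 was lost without MMC array 1, siIPMK array 2 or siIPMK array 3 (adjusted p up to 0.125 in limma). The causes were not tested. Slide as a block was not run, because the sources used here do not give the slide. Dim probes limit the sizes given as bounds.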
